A study of Sus scrofa with 24 samples.

Results

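The interferon-stimulated genes are the antiviral genes that cells switch on when an interferon binds its receptor. A list of 41 symbols of such genes was matched by Ensembl gene ID to the 25462 rows of the expression table, which held 39 of them. IFIT3 and XAF1 were not analysed here, and DDX58, the gene of the RNA sensor RIG-I, was matched under its current symbol RIGI. The genes were chosen as known interferon targets whose levels differed widely among the subcutaneous day 8 libraries, so those levels are described below without a test. All 39 genes passed the filter on low values (a summed FPKM over 24 libraries above 1), and all 39 also passed it when the BF-8d libraries were left out of the sum.

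The libraries were mRNA sequencing libraries of primary pig preadipocytes, the fibroblast-like cells from which fat cells form. The cells came from 6-day-old Yorkshire piglets, either from subcutaneous back fat (BF) or, as intramuscular preadipocytes, from digested longissimus dorsi muscle (IMF). They were sampled before induction (day 0) and on days 2, 4 and 8 of culture after a cocktail of IBMX, dexamethasone and insulin. The cocktail was present up to day 2, growth medium with insulin up to day 4 and growth medium after that. Libraries of different days thus differ in medium as well as in time. The part of the medium in the changes over time was not tested. There were 3 replicates for each of the 8 groups from BF-0d to IMF-8d. The labels do not say which piglet or dish a replicate came from, so the p-values measure the spread between these libraries, which may be technical. No group received an interferon or a virus according to the labels. Values are FPKM, fragments scaled by transcript length and library size. Tests were run on log2(FPKM + 1) with limma over 16135 genes, with genes counted as called where the adjusted p (Benjamini-Hochberg) was under 0.01 and the log2 difference was 1 or more.

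A type I interferon binds the receptor IFNAR1 and IFNAR2, whose kinases JAK1 and TYK2 phosphorylate STAT2. With IRF9 it takes part in a complex that binds the interferon-stimulated response element in the promoters of its targets. Interferon gamma uses IFNGR1 and IFNGR2 and acts through another element, the gamma-activated site. Cells make interferon after sensors such as RIG-I find foreign or misplaced nucleic acid, and fibroblasts and fat cell precursors are among the cells that can do so.

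Some of the listed genes carry the letters of these elements in their promoters, and a few are shown because the choice of the genes did not use them. The window from 250 bases before to 50 bases after the gene start was read for 38 of the 39 genes from the RefSeq annotation of Sscrofa11.1, the build of the deposited table. The letters GAAA, 2 bases of any kind and GAAA again, the core of the interferon-stimulated response element, stood on either strand in 20 of these 38 windows (52.6%), against 3.56% of the windows of 19509 protein-coding genes. More than 1 match was found in 10 of the 38 windows. The stretches below are written 5′ to 3′ on the strand of the gene, with the matched letters in capitals. For USP18, RSAD2 and UBA7 the match lies on the opposite strand, so the capitals show its complement.
ISG15 (chr6:63363053-63363102, plus strand): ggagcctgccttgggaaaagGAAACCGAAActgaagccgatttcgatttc
BST2 (chr2:60305098-60305147, plus strand): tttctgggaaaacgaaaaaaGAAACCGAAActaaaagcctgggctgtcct
CXCL10 (chr8:71696144-71696193, minus strand): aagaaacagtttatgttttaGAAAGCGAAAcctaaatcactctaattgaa
IFIH1 (chr15:68985146-68985188, minus strand): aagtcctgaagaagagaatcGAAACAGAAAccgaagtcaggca
USP18 (chr5:70183158-70183207, plus strand): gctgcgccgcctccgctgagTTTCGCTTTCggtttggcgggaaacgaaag
RSAD2 (chr3:128897910-128897959, minus strand): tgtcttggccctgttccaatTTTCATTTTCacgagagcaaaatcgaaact
UBA7 (chr13:32341301-32341335, minus strand): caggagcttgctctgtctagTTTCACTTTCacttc

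ISG15 and BST2 share the same 10 letters, at 128 and 188 bases before their gene starts. The ISG15 window holds 3 matches and the BST2 window holds 2, and some of these overlap. The letters TTCNNNGAA, the core of the gamma-activated site, read the same on both strands and stood in 4 of the 38 windows (10.5%), against 7.09% of all windows. IRF1 and IRF9, which encode transcription factors of the response, are among the 4 and are shown for the contrast with the genes above.
IRF1 (chr2:134783745-134783793, minus strand): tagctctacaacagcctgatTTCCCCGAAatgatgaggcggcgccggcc
IRF9 (chr7:75139675-75139723, minus strand): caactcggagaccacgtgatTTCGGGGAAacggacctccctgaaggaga

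Neither of these windows held the core of the interferon-stimulated response element. A match describes the letters only and is not evidence of binding. Many of the genes also sit side by side in the genome, since 20 of the 38 had another member within 100000 bases. The neighbours were IFIT1 and IFIT2, MX1 and MX2, OAS1 and OAS2, IFI44 and IFI44L, GBP1 and GBP2, HERC5 and HERC6, RSAD2 and CMPK2, the run of PARP14, DTX3L and PARP9, and the run of PSMB8, TAP1 and PSMB9. DTX3L and PARP9 overlap at their ends, and how reads shared by paralogs or overlapping genes were assigned is not given in the sources used here.

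The 24 libraries were alike in general measures, with a total of 307967 to 385768 FPKM and 9985 to 10858 genes of at least 1 FPKM. The stromal markers, such as collagen genes, summed to between 2930 and 9510 FPKM in every library. Of the adipocyte markers, ADIPOQ, LEP and PLIN1 stayed under 1 FPKM throughout, and the list of 10 summed to 937, 540 and 788 FPKM in BF-8d replicates 1 to 3 and to between 219 and 264 FPKM in IMF-8d. BF-2d replicate 3 stood apart in this sum, with 56.1 FPKM against 719 and 572 FPKM in the other BF-2d replicates. The gap lay mainly in PCK1 (24.5 against 611 and 461 FPKM) and LPL (6.71 against 82.1 and 77.7 FPKM). PPARG was higher in replicate 3 (5.75 against 1.27 and 1.27 FPKM), and CEBPA was not lower (10 against 9.71 and 8.37 FPKM). Of the 14 immune markers, CD3E and LYZ were listed at 0 in every library, and PTPRC, the pan-leukocyte marker, did not pass 0.00835 FPKM. The list summed to 72.6, 91.6 and 81.3 FPKM in BF-8d and to between 62.8 and 138 FPKM elsewhere, mostly from CD79A (47.9 to 130 FPKM). Of the 7 myogenic markers DES alone was tested and made up nearly all of the sum in the IMF libraries, where PAX7, MYF5, MYOD1 and MYOG were listed at 0. In bulk libraries such as these, fewer cells of a type and less RNA per cell cannot be told apart.

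The 3 BF-8d libraries differed widely in these genes. The median over the 39 genes was 5.89 FPKM in BF-8d replicate 1, 120 FPKM in replicate 2 and 46.9 FPKM in replicate 3. Together the genes took 0.185% of all FPKM in replicate 1, 3.67% in replicate 2 and 1.53% in replicate 3. The order was the same for each gene, replicate 2 over replicate 3 over replicate 1 in 39 of 39, an order that 20.8% of all tested genes had. The range between the highest and lowest BF-8d library had a median of 3.71 log2 units over the 39 genes and of 0.23 over all tested genes. It reached 3 log2 units in 30 of the 39 and in 75 of all 16135 genes (0.465%).

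**Figure D1:**
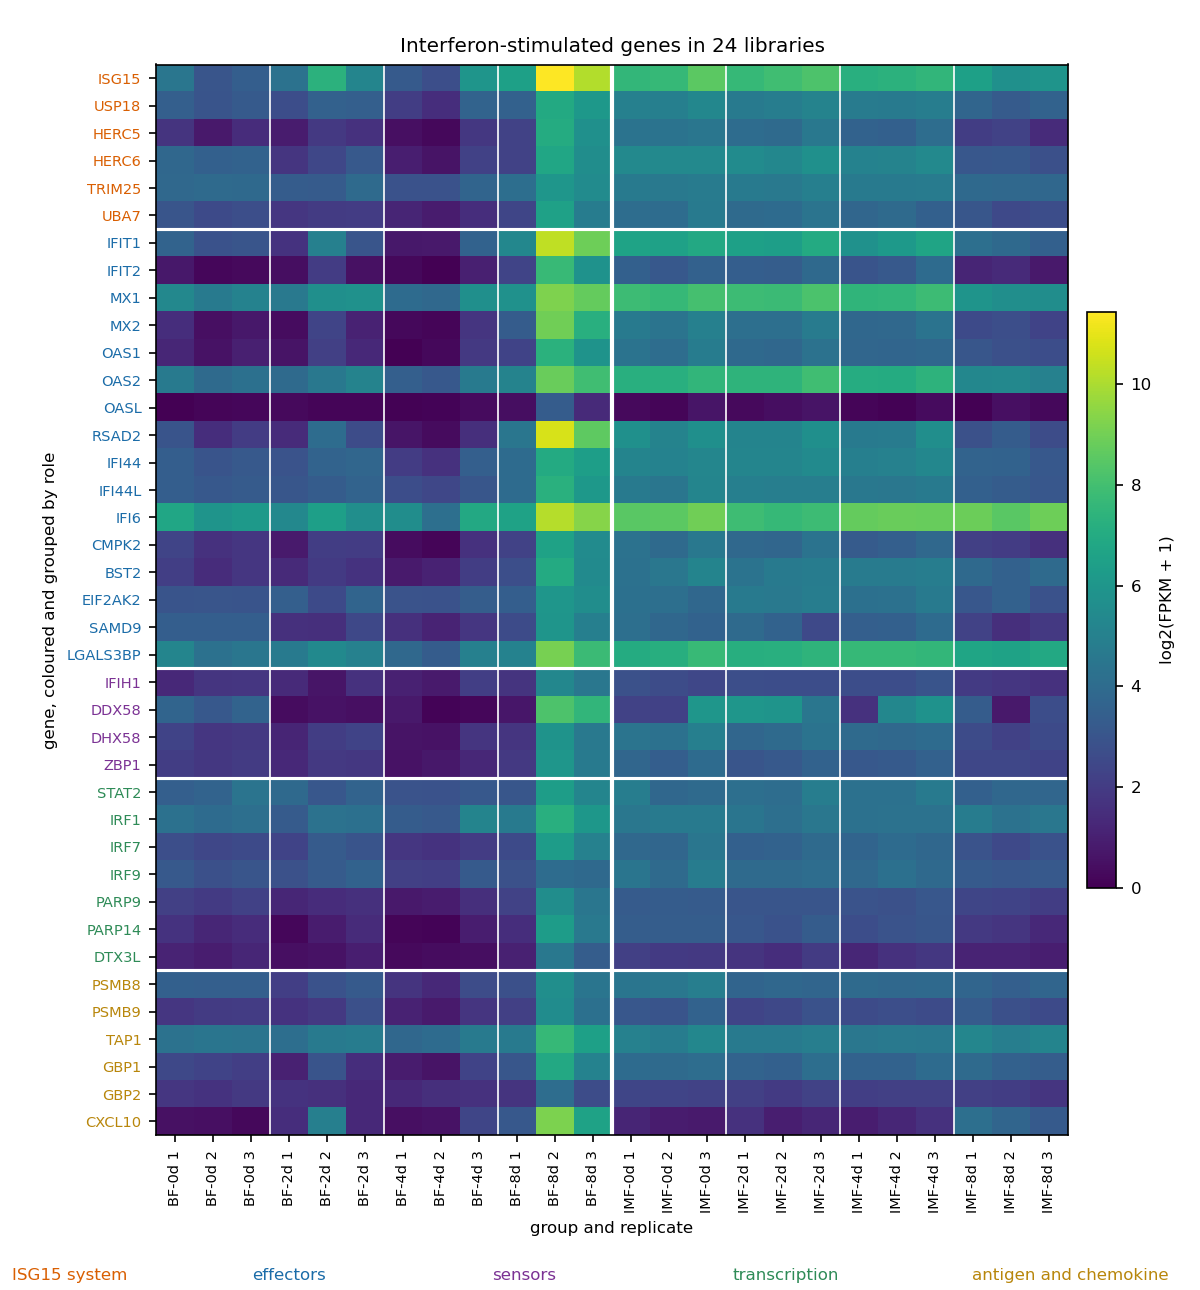
Heat map of log2(FPKM + 1) for the 39 interferon-stimulated genes (rows, grouped and coloured by role) in the 24 libraries (columns, by group and replicate). BF-8d replicates 2 and 3 are the brightest columns for most genes, BF-4d replicates 1 and 2 are among the darkest, and the IMF libraries of days 0, 2 and 4 are brighter than the BF libraries of the same days.

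The genes of the ISG15 system make and control the tagging of proteins with ISG15, a small protein related to ubiquitin. ISG15 itself had 90.5, 2760 and 1110 FPKM in BF-8d replicates 1 to 3, the highest level of the 39 genes in replicates 2 and 3, while IFI6 was above it in replicate 1. It had 21.1, 6.98 and 9.59 FPKM in BF-0d, 18.8, 164 and 36.3 FPKM in BF-2d, and 8.46, 5.76 and 62.2 FPKM in BF-4d. Each BF-8d library was thus above each BF-4d library, but replicate 1 was also below BF-2d replicate 2. UBA7, the enzyme that activates ISG15, had 4.27, 93.1 and 27.1 FPKM in the BF-8d replicates and between 0.824 and 1.81 FPKM in BF-4d. HERC5, a ligase that attaches ISG15, had 3.78, 130 and 52.8 FPKM in BF-8d and between 0.192 and 2.63 FPKM in BF-4d. HERC6, a related ligase, had 3.82, 108 and 47.8 FPKM. USP18, the protease that removes ISG15 and also restrains the interferon receptor, had 10.7, 123 and 68.3 FPKM. TRIM25, a ubiquitin ligase that acts on RIG-I, differed least in this group, with 16.6, 62.5 and 44.3 FPKM. Over the 6 genes the ratio of replicate 2 to replicate 1 ran from 3.76 to 34.3, with a median of 25.0.

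The 16 effectors act on viral RNA, proteins or particles, and they spanned 6.45 to 80.3 in the same ratio (median 19.5). RSAD2 encodes viperin, an enzyme that makes a chain-ending nucleotide, and it had 21.1, 1700 and 381 FPKM in the BF-8d replicates. Its BF-4d libraries had 0.58, 0.252 and 1.92 FPKM, so all 3 BF-8d libraries were above them. IFIT1, which binds foreign RNA, had 38.6, 1290 and 476 FPKM in BF-8d after 0.643, 0.697 and 11.2 FPKM in BF-4d. MX2, a dynamin-like antiviral GTPase, had 8.88, 497 and 146 FPKM, and its paralog MX1 had 54.9, 594 and 419 FPKM. The MX1 level of replicate 1 was just above the highest BF-4d library, at 50.1 FPKM, whereas replicates 2 and 3 were far above it. OAS1 and OAS2 make the second messenger that activates RNase L. OAS1 had 3.98, 156 and 57 FPKM, and OAS2 had 33.7, 452 and 243 FPKM. CMPK2, a mitochondrial nucleotide kinase next to RSAD2, had 3.73, 96.2 and 44.4 FPKM. BST2, which tethers budding virus to the cell, had 5.72, 126 and 42.9 FPKM. EIF2AK2, the kinase that halts translation on double-stranded RNA, varied less, with 9.8, 63.2 and 46.9 FPKM. IFIT2, a relative of IFIT1, had 4.12, 208 and 56.6 FPKM. IFI6, a small mitochondrial protein gene, had 94.5, 1140 and 647 FPKM, and LGALS3BP, which encodes a secreted glycoprotein, had 32.2, 551 and 222 FPKM. The neighbours IFI44 and IFI44L had 14.9, 125 and 84.5 FPKM and 15, 154 and 66.4 FPKM, and SAMD9 had 5.05, 60.9 and 29.2 FPKM. All of these effectors kept the order of the replicates. OASL was the lowest of the 39 genes and stayed under 1 FPKM in every library except BF-8d replicates 2 and 3, which had 9.12 and 1.58 FPKM.

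Among the 4 nucleic acid sensors, IFIH1 had 2.26, 38.7 and 22.3 FPKM in the BF-8d replicates. DHX58, a regulator of RIG-I and IFIH1, had 2.39, 58.2 and 23.4 FPKM. ZBP1, which detects left-handed nucleic acid, had 2.74, 62.5 and 24.8 FPKM. DDX58 had 0.609, 305 and 184 FPKM, the widest ratio of the 39 genes (500 for replicate 2 to replicate 1). DDX58 also jumped within other groups, as from 3.73 and 3.61 to 63.5 FPKM in IMF-0d, so its values carry less weight than those of the other genes.

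Of the 7 genes of transcriptional control, IRF7, the factor that amplifies interferon production, had 5, 80 and 31.8 FPKM in BF-8d. STAT2 had 7.31, 82.1 and 35.8 FPKM, and IRF1 had 25.1, 149 and 64.6 FPKM. PARP14, an ADP-ribosyltransferase, had 1.83, 80 and 23.4 FPKM. The partners PARP9 and DTX3L had 3.83, 47.6 and 21.2 FPKM and 1.1, 22.6 and 9.32 FPKM. IRF9 was the exception in this group, with 6.2, 15.6 and 14.2 FPKM, the narrowest ratio of the 39 genes (2.51). It was also the single gene whose highest library was not BF-8d replicate 2, since IMF-0d replicate 3 had 26.5 FPKM.

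The 6 genes of antigen processing and chemoattraction had a median ratio of 10.8. TAP1, the peptide transporter, had 24.3, 199 and 89.4 FPKM. The immunoproteasome subunits PSMB8 and PSMB9 had 5.89, 49.8 and 20.9 FPKM and 3.51, 46.1 and 17.5 FPKM. GBP1, a guanylate-binding GTPase, had 7.39, 120 and 32.8 FPKM, and its relative GBP2 had 2.28, 16.1 and 5.21 FPKM. CXCL10, a chemokine for T cells, had 7.86, 580 and 95 FPKM and, at 6.11, the widest ratio between replicates 2 and 3.

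**Figure D2:**
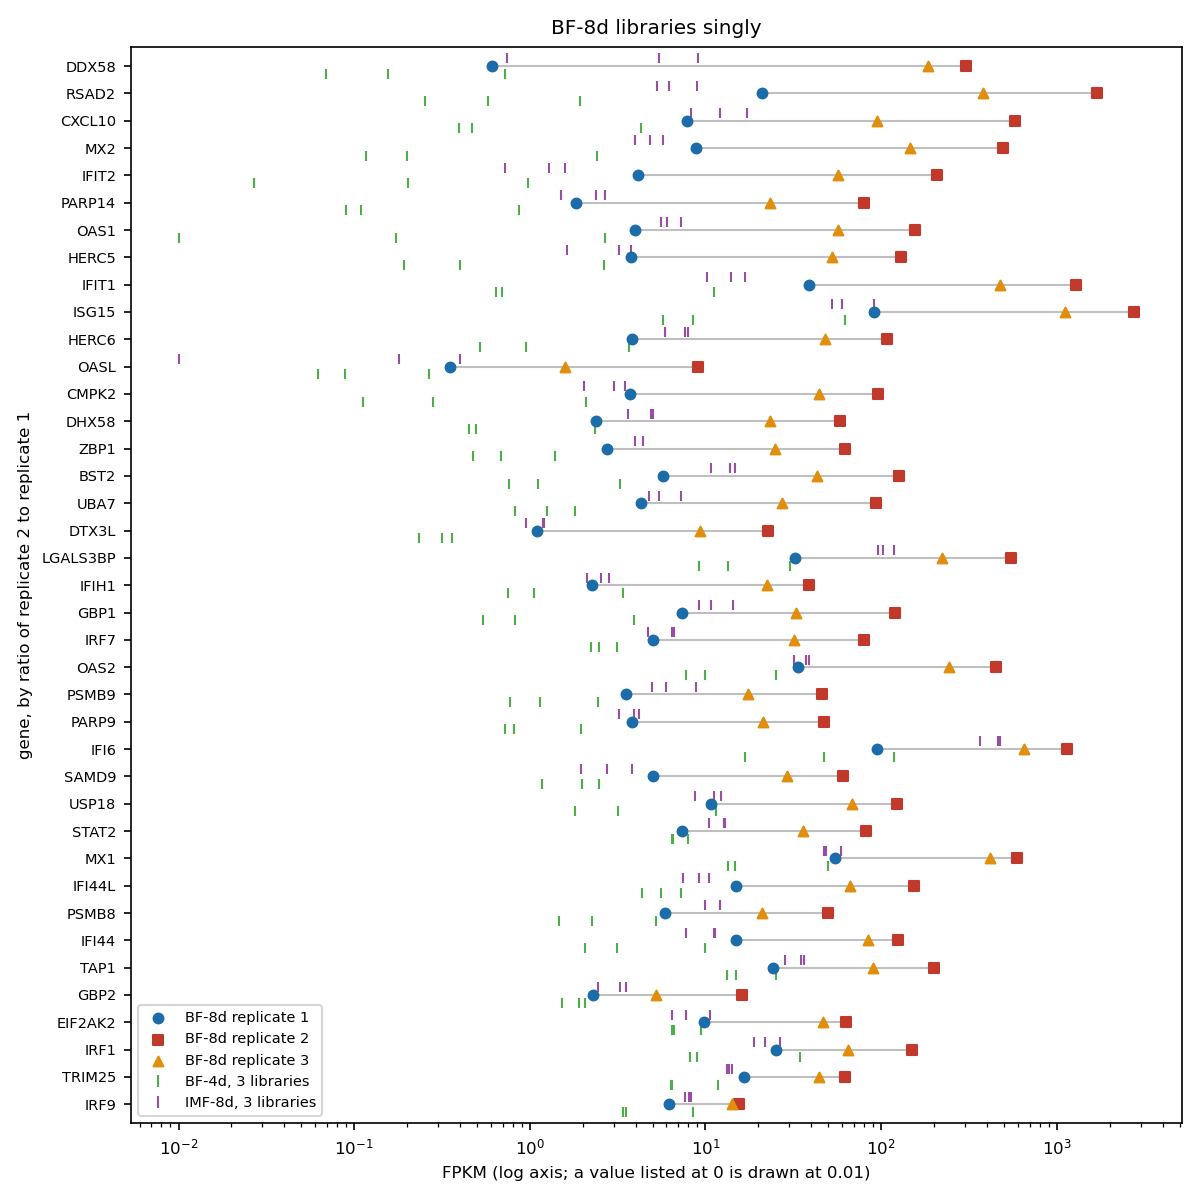
FPKM on a log axis of each gene in the 3 BF-8d libraries (symbols joined by a line), with the 3 BF-4d and 3 IMF-8d libraries as ticks, ordered by the ratio of BF-8d replicate 2 to replicate 1. Replicate 2 lies to the right of replicate 3 and replicate 3 to the right of replicate 1 in all 39 rows, from a ratio of 500 for DDX58 to 2.51 for IRF9.

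BF-8d replicates 2 and 3 were above all BF libraries of days 0, 2 and 4 for 39 of 39 genes, as were 8.19% of all tested genes. Replicate 1 was above all 3 BF-4d libraries for 31 genes (21.5% of all genes) and above all 3 BF-0d libraries for 22 (33.8%), and it was below all 3 IMF-0d libraries for 36 (47.5%). Against the mean of IMF-8d, the median ratio over the genes was 0.904 for replicate 1, 13.5 for replicate 2 and 6.68 for replicate 3. By this median, replicate 1 stood near the level of IMF-8d and replicates 2 and 3 stood above it. From BF-4d to BF-8d, 35 of the 39 genes were called higher and 31 had groups that did not overlap, where 1.78% of all tested genes were called higher and 10.4% did not overlap upward. The median log2 difference was 3.26, from 1.09 for IRF9 to 7.08 for RSAD2, against −0.05 over all genes. This contrast was in view when the genes were chosen, so it is given as a description. When only the 6 libraries of these groups were fitted, 0 of the 39 were called, and so were 0.0248% of all genes.

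IFNB1, the gene of interferon beta, had 0.0854, 5.62 and 1.19 FPKM in BF-8d replicates 1 to 3, the same order as its targets. In the other 21 libraries it did not pass 0.443 FPKM, and it was listed at 0 in all of BF-0d and IMF-8d. Of the 12 interferon genes looked for, the table held 6, and the other 5 (IFNG, IFNE, IFNK, IFN-ALPHA-8 and IFN-DELTA-1) stayed under 1 FPKM in every library. The receptor chain IFNAR1 was present in all libraries and did not follow that order, with 28.6, 24.4 and 28.2 FPKM in BF-8d. IFNAR2 had 17.7, 28.3 and 22.5 FPKM, and the kinase JAK1 had 50.4, 58.6 and 56 FPKM. JAK2, which serves the interferon gamma receptor, had 6.49, 18 and 8.05 FPKM. IFNLR1, the receptor chain for lambda interferons, was listed at 0 in all 24 libraries. TLR3, a sensor of double-stranded RNA, had 6.46, 29.9 and 16.2 FPKM in BF-8d. The immune marker CD86 followed the same order, with 3.72, 17 and 8.83 FPKM after 1.76, 2.37 and 2.61 FPKM in BF-4d. TYROBP, another immune marker, had 6.4, 6.14 and 6.76 FPKM in BF-8d after 1.2, 1.09 and 0.695 FPKM, and both were called higher from BF-4d to BF-8d. The adipocyte sum was lowest in replicate 2 and highest in replicate 1. Of the adipocyte markers, CFD (log2 difference 3.33) and FABP4 (1.34) were called higher from BF-4d to BF-8d. The part of these markers in the differences was not tested.

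Among 50 further interferon targets, the table held 32 and 31 were tested. From BF-4d to BF-8d 20 of the 31 were called higher, with a median log2 difference of 1.70, where 1.78% of all genes were called higher. Of 11 further genes of antigen presentation 5 were called higher over the same interval. Of the 8 tested receptor and kinase genes 1 was called higher, JAK2. These counts rest on the same uneven BF-8d libraries, and the fit of the 6 libraries alone called 0.0248% of all genes.

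Before day 8 the genes were low in the subcutaneous cells. Their median was 4.92 to 6.85 FPKM in the BF-0d libraries, 2.19 to 5.31 FPKM in BF-2d and 0.824 to 3.38 FPKM in BF-4d. From BF-0d to BF-2d 0 of the 39 genes were called with limma, where 6.59% of all tested genes were, and 3 had an unadjusted p under 0.05, against 41.2% of all genes. The median log2 difference was 0.02. The groups did not overlap upward for 1 gene, CXCL10 (16.8% of all genes), and downward for 6 (23.3%). DDX58 had the largest difference, from 11.7, 7.89 and 11.3 FPKM to 0.303, 0.464 and 0.38 FPKM (log2 difference −3.01, SE 1.45, limma adjusted p = 0.125), and was the single gene called in the fit of the 6 libraries alone (limma adjusted p = 0.00382, where 0.911% of all genes were called lower). CXCL10 went from 0.445, 0.37 and 0.186 FPKM to 1.84, 29.8 and 1.53 FPKM, with a log2 difference of 2.19 (SE 1.03, limma adjusted p = 0.115). SAMD9 went from 9.53, 9.53 and 9.52 FPKM to 2, 1.92 and 4.59 FPKM (log2 difference −1.53, SE 0.55, limma adjusted p = 0.039) and was the single gene called without the BF-8d libraries (limma adjusted p = 0.00132, where 3.86% of all genes were called lower). From BF-2d to BF-4d again 0 were called, where 3.35% of all genes were, and 1 had an unadjusted p under 0.05 (36.5% of all genes). Here 38 of the 39 log2 differences were negative, with a median of −0.60. In both intervals the error of the fit of 24 libraries includes BF-8d, where these genes varied most. A low share among the 39 is thus not evidence of a steadier level. The BF-4d libraries were themselves uneven, since replicate 3 was the highest of the 3 for 38 of the 39 genes (39.4% of all genes). IFIT1, with 0.643, 0.697 and 11.2 FPKM, shows the gap, and BF-4d replicate 2 was the lowest of all 24 libraries for 27 genes (3.27% of all genes).

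In intramuscular cells the medians were higher on days 0, 2 and 4. The median over the genes was 19.6, 17.1 and 25.8 FPKM in IMF-0d, 15.5, 14.8 and 21.4 FPKM in IMF-2d, and 13.7, 14.8 and 15.9 FPKM in IMF-4d. Leaving out BF-8d, the group with the highest mean was IMF-0d for 22 genes, IMF-2d for 11, IMF-4d for 3 and IMF-8d for 3. From IMF-0d to IMF-2d 0 genes were called (0.787% of all genes) with a median log2 difference of −0.19. From IMF-2d to IMF-4d 0 were called (0.0372% of all genes) with a median of −0.16. In both intervals 0 of the 39 had an unadjusted p under 0.05 with limma, against 21.2% and 8.34% of all genes. The BF-8d libraries, in which these genes varied most, enter the error of this fit. A low share among the 39 is thus not evidence of a steadier level. MX1 illustrates the level, with 225, 204 and 269 FPKM in IMF-0d, 229, 219 and 292 FPKM in IMF-2d, and 177, 184 and 225 FPKM in IMF-4d.

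**Figure D3:**
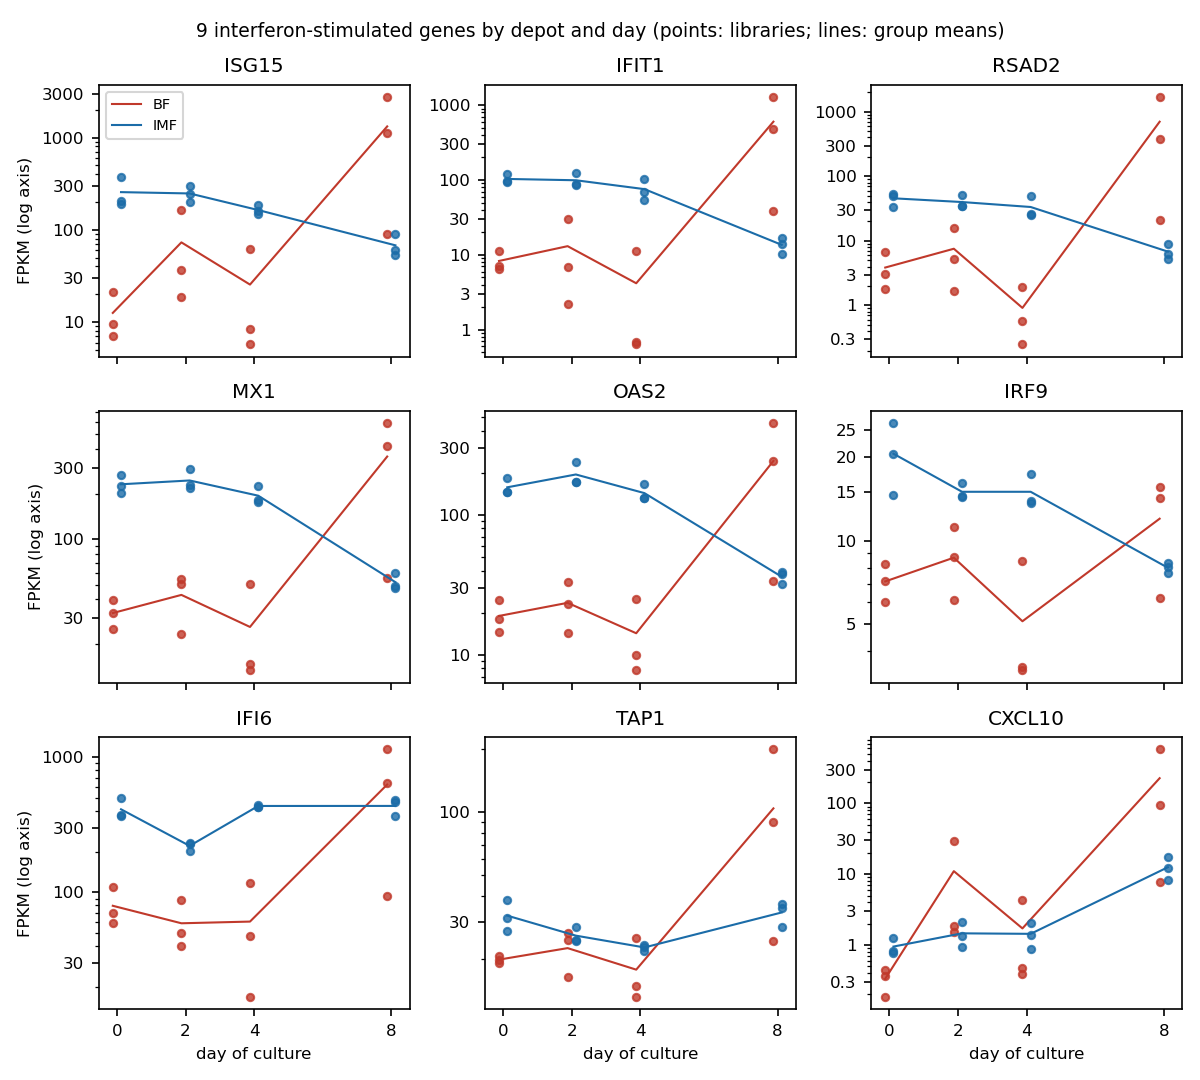
FPKM on log axes against day of culture for 9 genes in BF (red) and IMF (blue) cells, with points for the libraries and lines through the group means. In IMF cells ISG15, IFIT1, RSAD2, MX1, OAS2 and IRF9 lie lower on day 8 than on day 4, the IFI6 points of both days overlap, and TAP1 and CXCL10 lie higher. The BF-8d points are spread widely in all panels except that of IRF9, where they lie closer together.

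On day 4 the intramuscular level was the higher for most genes. Compared with BF-4d, 28 of the 39 genes were called higher in IMF-4d and 0 lower, where 6.6% of all tested genes were called higher. The groups did not overlap for 35 genes, against 33.6% of all genes in that direction. The median log2 difference was 2.46, against 0.07 over all genes. All 6 genes of the ISG15 system and 14 of the 16 effectors were called, with 2 of 4 sensors, 4 of 7 genes of transcriptional control and 2 of 6 genes of antigen processing and chemoattraction. OAS2 had 133, 131 and 165 FPKM in IMF-4d and 9.96, 7.74 and 25.1 FPKM in BF-4d, a log2 difference of 3.40 (SE 0.60, limma adjusted p = 0.000148). HERC6 had 32.6, 33.1 and 41.2 FPKM against 0.945, 0.518 and 3.67 FPKM (log2 difference 3.93, SE 0.70, limma adjusted p = 0.000153). LGALS3BP had 201, 202 and 189 FPKM against 13.5, 9.14 and 30.3 FPKM (log2 difference 3.57, SE 0.62, limma adjusted p = 0.000134). The largest difference was that of IFIT1, 4.52 (SE 0.95, limma adjusted p = 0.000743). IRF9, which varied least in BF-8d, was also higher, with 13.7, 17.4 and 13.9 FPKM against 3.52, 3.41 and 8.45 FPKM (log2 difference 1.47, SE 0.29, limma adjusted p = 0.000433).

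TAP1, IRF1, CXCL10 and OASL overlapped between the depots on day 4. TAP1 had 21.8, 23.3 and 22.9 FPKM in IMF-4d and 13.2, 14.9 and 25.2 FPKM in BF-4d (log2 difference 0.39, SE 0.43, limma adjusted p = 0.503). CXCL10 had 0.866, 1.37 and 2.08 FPKM against 0.395, 0.466 and 4.29 FPKM (log2 difference 0.11, SE 1.03). The count of 28 fell to between 14 and 27 when single libraries were left out, being 14 without IMF-4d replicate 3, 15 without BF-4d replicate 2 and 16 without BF-4d replicate 1. Of the 28 genes, 14 were called in all 6 of these fits. With only the 6 libraries of day 4 the count was 29 (5.95% of all genes called higher), which held 25 of the 28 but not ISG15, IRF9 and USP18. Without the BF-8d libraries it was 34 (6.75%), with all 28 among them. On this day the adipocyte markers summed to between 299 and 553 FPKM in BF and between 12.6 and 16.4 FPKM in IMF, and DES had 0.0548, 0.0384 and 0 FPKM in BF and 11.8, 10 and 13.2 FPKM in IMF. The stromal markers summed to between 2930 and 4400 FPKM in BF and between 8560 and 8730 FPKM in IMF, with COL1A1 (log2 difference 2.75) and DCN (1.22) called higher and PDGFRA (−1.24) and PDGFRB (−1.01) called lower in IMF. The immune marker CD86 was called higher in IMF (1.22), while the immune sum was between 85.6 and 110 FPKM in BF and between 70.5 and 81.6 FPKM in IMF. Their part in the difference was not tested.

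The earlier days had the same direction with fewer calls. On day 2, 5 of the 39 genes were called higher in IMF (MX1, OAS2, BST2, HERC6 and TRIM25), where 2.71% of all genes were called higher, and the groups did not overlap for 34 (23.2% of all genes). The median log2 difference was 1.84. OAS2 had 172, 172 and 239 FPKM in IMF-2d and 14.3, 23 and 33.3 FPKM in BF-2d (log2 difference 3.05, SE 0.60, limma adjusted p = 0.00117). BST2 had 19.3, 25.4 and 26.8 FPKM against 1.54, 2.79 and 2.18 FPKM (log2 difference 2.97, SE 0.63, limma adjusted p = 0.00207). CXCL10 was the single gene with a negative difference, at −1.33 (SE 1.03, limma adjusted p = 0.371), and its groups overlapped. The wide BF-8d libraries enter the spread of this fit, and without them 28 genes were called on day 2 (2.9% of all genes called higher), a choice made after the values had been seen. With only the 6 libraries of day 2 the count was 8 (0.483% of all genes called higher), which included OAS2 and BST2 but not MX1, HERC6 and TRIM25. Leaving out single libraries gave 1, 3 and 6 without BF-2d replicates 1, 2 and 3, the last being the library with the low adipocyte sum. It gave 2, 3 and 1 without IMF-2d replicates 1, 2 and 3. On day 2 the adipocyte markers summed to between 6.69 and 9.34 FPKM in IMF and between 56.1 and 719 FPKM in BF. Of these, 5 of 7 tested were called lower in IMF, and DES was called higher (log2 difference 1.25). The stromal markers summed to between 8590 and 9510 FPKM in IMF and between 4480 and 8720 FPKM in BF, with PDGFRA called lower in IMF (−1.41). Their part in the difference was not tested.

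On day 0, before induction, 9 genes were called higher in IMF, where 1.87% of all genes were, and 36 did not overlap (23.5% of all genes). This contrast too was known when the genes were chosen and is described only. ISG15 had 188, 204 and 376 FPKM in IMF-0d against 21.1, 6.98 and 9.59 FPKM in BF-0d, a log2 difference of 4.31 and the largest of the 39. The count was 5, 0 and 1 without BF-0d replicates 1, 2 and 3, and 2, 3 and 1 without IMF-0d replicates 1, 2 and 3. It was 28 without the BF-8d libraries (2.08% of all genes called higher) and 29 with only the 6 libraries of day 0 (2.32%). On that day DES, a muscle filament gene, had 29.6, 36.2 and 45.3 FPKM in IMF and 4.67, 4.5 and 4.88 FPKM in BF, and the adipocyte markers summed to between 4.46 and 4.87 FPKM in IMF and between 19.2 and 22.6 FPKM in BF. Their part in the difference was not tested. The immune marker list had overlapping ranges, 77.9 to 87.6 FPKM in IMF-0d and 70.0 to 95.4 FPKM in BF-0d.

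On day 8 the sign turned, with 17 genes called lower in IMF than in BF, where 2.65% of all genes were called lower, and 11 with no overlap (18.1% of all genes). The median log2 difference was −1.87, from −4.98 for RSAD2 to 0.07 for IFI6. The median was −2.95 without BF-8d replicate 1, −1.14 without BF-8d replicate 2 and −1.71 without BF-8d replicate 3. This is again a description, and the count was 4 without BF-8d replicate 2, 6 without BF-8d replicate 3 and 37 without BF-8d replicate 1. It was 11, 11 and 7 without IMF-8d replicates 1, 2 and 3, and 0 with only the 6 libraries of day 8 (2.26% of all genes called lower). Of the markers, CD86 (log2 difference −1.21), FABP4 (−1.57), CFD (−3.20) and LUM (−1.26) were called lower in IMF-8d, and DES (1.33), FAP (1.89), COL1A1 (1.28) and PECAM1 (1.03) higher. Their part in the difference was not tested.

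**Figure D4:**
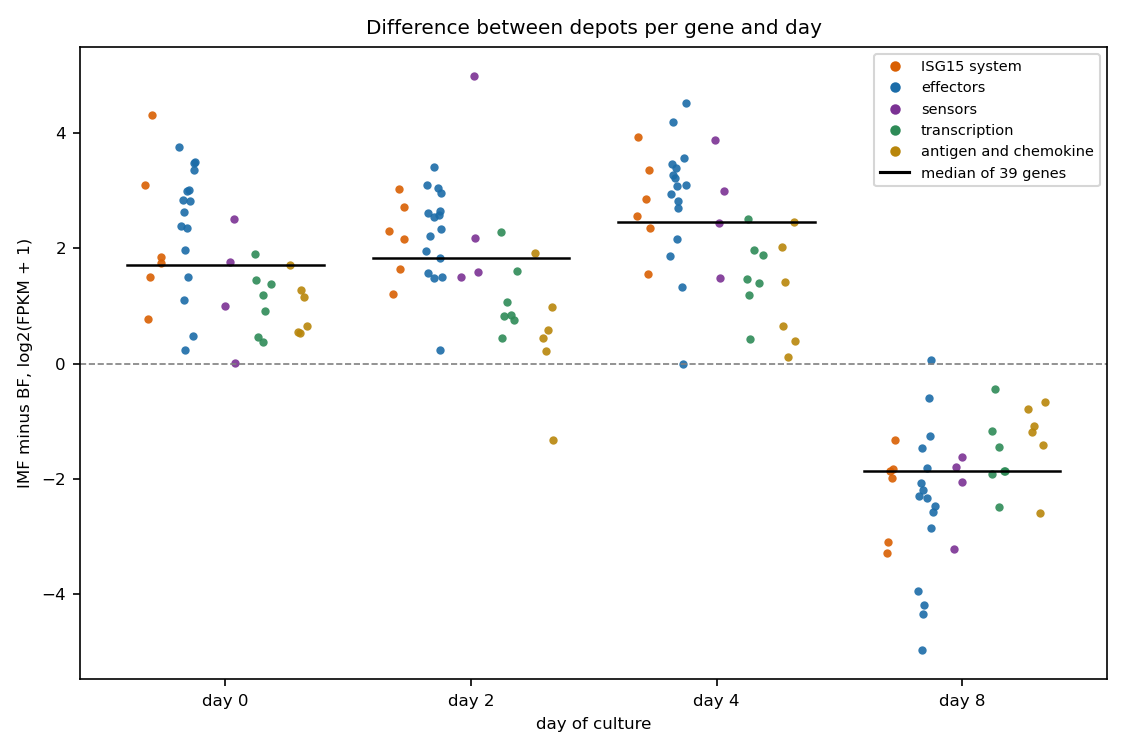
Difference between depots, IMF minus BF in mean log2(FPKM + 1), for each of the 39 genes on the 4 days, coloured by role, with a black line at the median. The medians are 1.72, 1.84 and 2.46 on days 0, 2 and 4 and −1.87 on day 8, and on the first 3 days the genes of antigen processing and chemoattraction have a lower median than the effectors.

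The change over time was compared between the depots directly with interaction contrasts. Over the first 2 intervals (days 0 to 2 and days 2 to 4) 0 of the 39 genes were called with limma, where 2.45% and 3.06% of all genes were. In these intervals 1 and 0 genes had an unadjusted p under 0.05, against 30.2% and 28.6% of all genes. The median differences were −0.09 and 0.49, and 16 and 34 of the 39 differences were positive. The BF-8d libraries enter the error of this fit too, so the lack of calls is not evidence of equal changes. From day 4 to day 8, 30 of the 39 were called lower in IMF, where 2.58% of all genes were called lower, and the median difference was −4.33. That last contrast rests on the BF-8d libraries and was in view when the genes were chosen. With only the 12 libraries of these days 10 of the 39 were called (2.25% of all genes called lower). Of the markers, CD86 (−2.43), DES (−2.28), COL1A1 (−1.47), LUM (−1.27) and COL3A1 (−1.15) were called lower in the same contrast, and PCK1 (7.85) and LPL (3.31) higher. Their part in the difference was not tested.

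Within the intramuscular cells, most of the genes were lower on day 8 than on day 4. The median over the genes went from 13.7, 14.8 and 15.9 FPKM in IMF-4d to 8.29, 7.97 and 6.44 FPKM in IMF-8d. The groups did not overlap downward for 30 of the 39 genes, against 32.8% of all genes, and upward for 2 (TAP1 and CXCL10), against 20.1%. In the fit of all 24 libraries 0 genes were called with limma, where 7.25% of all genes were. An unadjusted p under 0.05 was found for 16 of the 39 and for 44.5% of all genes, a share no lower than that of the 39. Fitted on the 6 IMF-4d and IMF-8d libraries alone, 20 were called, 19 lower and 1 higher, where 3.46% of all genes were called lower and 4.4% higher. Without the BF-8d libraries 16 were called, 15 lower and 1 higher (3.16% and 4.16% of all genes), and all 16 were among the 20. The fits give the same differences with different errors, and the fit of 24 libraries includes BF-8d, the group in which these genes varied most. Marker sums moved over the same interval. The adipocyte sum went from between 12.6 and 16.4 FPKM to between 219 and 264 FPKM, the stromal sum from between 8560 and 8730 FPKM to between 4770 and 5330 FPKM, and DES from 11.8, 10 and 13.2 FPKM to 1.27, 1.57 and 2.22 FPKM. Within the adipocyte list LPL, CFD and PCK1 were called higher (log2 differences 4.21, 3.66 and 6.09) and CEBPA was called lower (−1.33). Within the stromal list COL1A1 was called lower (log2 difference −1.09) and FAP higher (1.48). The immune sum was 70.5 to 81.6 FPKM and then 77.2 to 93.5 FPKM, and of its 8 tested genes TYROBP was called higher, with 2.06, 1.05 and 0.508 FPKM and then 9.13, 5.47 and 4.74 FPKM (log2 difference 1.77, SE 0.26, limma adjusted p = 3.32e-05). Their part in the difference was not tested.

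IFIT1 had 54.9, 69.8 and 102 FPKM in IMF-4d and 16.8, 13.9 and 10.2 FPKM in IMF-8d, a log2 difference of −2.37. Its limma adjusted p was 0.0585 (SE 0.95) in the fit of 24 libraries and 0.000109 (SE 0.24) in that of 6. MX1 had 177, 184 and 225 FPKM and then 59.4, 48.6 and 47.6 FPKM (log2 difference −1.89, limma adjusted p = 0.0199 in the first fit and 1.24e-05 in the second). OAS2 had 133, 131 and 165 FPKM and then 37.6, 39 and 31.9 FPKM (log2 difference −1.95, limma adjusted p = 0.0164 and 8.34e-06). HERC6 showed the smallest limma adjusted p of the 39 genes in the second fit, 7.86e-06, with 32.6, 33.1 and 41.2 FPKM and then 7.62, 7.97 and 5.87 FPKM. In all 4 genes the highest IMF-8d library was below the lowest IMF-4d library.

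By role, the median log2 difference from IMF-4d to IMF-8d was −1.54 for the effectors, −1.25 for the ISG15 system and −1.25 for the sensors. It was −0.71 for transcriptional control and 0.07 for antigen processing and chemoattraction. IFI6, among the most abundant of the genes, had 429, 446 and 431 FPKM in IMF-4d and 462, 367 and 478 FPKM in IMF-8d. IRF1 had 18.4, 18.9 and 19.1 FPKM and then 26.5, 18.9 and 21.8 FPKM, so its groups overlapped. TAP1 had 21.8, 23.3 and 22.9 FPKM and then 36.4, 28.4 and 35 FPKM, a log2 difference of 0.52 (limma adjusted p = 0.373 in the first fit and 0.00653 in the second), under the threshold of 1.

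CXCL10 had the largest positive difference of the 39 genes. It had 0.866, 1.37 and 2.08 FPKM in IMF-4d and 17.3, 12.1 and 8.29 FPKM in IMF-8d, a log2 difference of 2.45 (limma adjusted p = 0.0713 in the first fit and 0.000137 in the second). CCL5, another chemokine gene and one of the further interferon targets, rose over the same interval. It had 4.2, 5.25 and 4.38 FPKM and then 92.7, 79 and 75 FPKM (log2 difference 3.89, SE 0.61, limma adjusted p = 7.59e-05 in the fit of 24 libraries). It was the single one of the 31 tested further targets that was called between IMF-4d and IMF-8d.

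**Figure D5:**
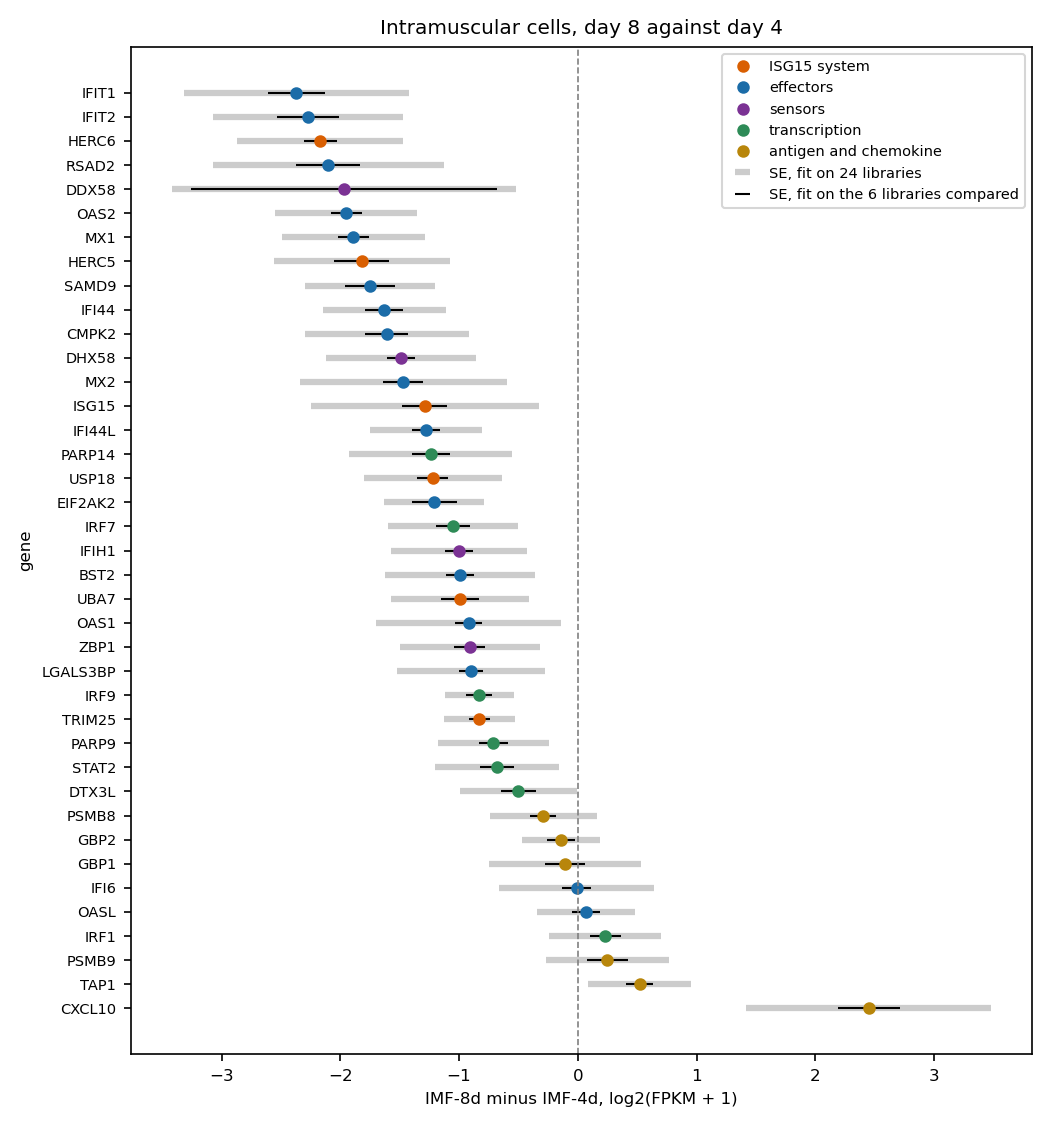
Difference between IMF-8d and IMF-4d in mean log2(FPKM + 1) for each of the 39 genes (points coloured by role), with the standard error from the fit of 24 libraries (grey) and from the fit of the 6 libraries compared (black). The points run from −2.37 for IFIT1 to 2.45 for CXCL10, and the grey errors are wider than the black ones for each gene.

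Other genes of the pathway were also compared between the depots before day 8. Of the 31 further targets, 2 were called higher in IMF on day 0 (TRIM34 and PML), where 1.87% of all genes were. On day 2, 3 were called higher in IMF, IFIT5 and TRIM34 among them, where 2.71% of all genes were called higher. On day 4 it was 5 (IFI35, TRIM34, PML, EPSTI1 and WARS1), where 6.6% of all genes were. Of the 11 genes of antigen presentation, PSME2 was called higher in IMF on day 0, ERAP1 on day 2, and TAP2 and ERAP1 on day 4 (log2 differences 1.62, 1.48, 1.51 and 1.35). Of the 12 tested sensors and adaptors, TICAM1, the adaptor of TLR3, was called lower in IMF-4d (4.27, 4.16 and 3.24 FPKM) than in BF-4d (6.98, 6.79 and 21.4 FPKM), with a log2 difference of −1.20 (SE 0.28, limma adjusted p = 0.00167). Of the 7 negative regulators, NLRX1, which restrains signalling from RNA sensors, was called higher in IMF-4d (7.72, 7.43 and 6.19 FPKM) than in BF-4d (2.68, 2.37 and 2.29 FPKM), with a log2 difference of 1.23 (SE 0.18, limma adjusted p = 1.97e-05). SOCS3, which blocks cytokine receptor signalling, rose from BF-0d (6.87, 6.63 and 7.77 FPKM) to BF-2d (29.4, 30.3 and 22.7 FPKM), with a log2 difference of 1.81 (SE 0.18, limma adjusted p = 3.52e-07). In IMF it went from 28.8, 23.9 and 30.9 FPKM on day 0, when it was called higher than in BF (log2 difference 1.83), to 16.3, 17.2 and 12.8 FPKM, and the difference between the depots in this change was −2.62 (SE 0.25, limma adjusted p = 3.82e-06). TLR3 fell from 13.3, 14.4 and 13.8 FPKM in BF-0d to 3.13, 0.872 and 3.82 FPKM in BF-2d (log2 difference −2.15, SE 0.41, limma adjusted p = 0.00048). Of the 8 tested receptor and kinase genes 0 were called between the depots on days 2 and 4.

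Across the 24 libraries most of the genes followed each other. Pearson's r of a gene with the mean log2(FPKM + 1) of the 39 had a median of 0.95, from 0.558 for CXCL10 to 0.988 for ZBP1, against a median of 0.015 for the other tested genes. The libraries share groups, and the BF-8d libraries lie far out, so these values describe the table and carry no test. Among the other genes 32 reached 0.9. The 15 closest with a symbol included EPSTI1 (0.984), PARP12, DDX60, TRIM34, FBXO39, FOXS1, SNX10, IFIT5, PLEKHA4, TRIM21, ZNFX1, ENDOV, SP110 and FUNDC1 (0.941). EPSTI1 had 3.28, 77.1 and 28.3 FPKM in the BF-8d replicates, and FUNDC1 had 6.15, 22.2 and 13.2 FPKM.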

How the data were processed

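The authors sequenced polyadenylated RNA on an Illumina NovaSeq, aligned reads to Sscrofa11.1 with HISAT2 and quantified Ensembl and assembled genes with StringTie 1.3.4d, and the deposited table holds their FPKM. Per the labels, RNA came from cells of 3 replicates in each of 8 groups. The authors' tests used DESeq2 on counts, which FPKM do not keep, so the depth of a value is unknown and it carries no counting interval. An exact 0 can be a failed estimate. FPKM scaling lets a few abundant genes shift all others.

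Here log2(FPKM + 1) of 16135 genes (summed FPKM above 1) was fitted with 1 mean per group over 24 libraries in limma 3.58.1 (R 4.3.3; eBayes with trend and robust). The 10 pairwise and 3 interaction contrasts were adjusted over all genes. The code was checked on simulated data. The members and gene lists were chosen with earlier results of these data known. Every member in the table is reported, with library values for those whose highest group mean reached 10 FPKM and a few below it. Alternatives changed the pseudocount, filter, scaling, block and libraries fitted. Results for 1 further gene are not reported here.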

Additional observations from a re-analysis of the deposited data

Results flagged for a closer look

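The change from day 4 to day 8 differed between the depots for 30 of the 39 genes by the interaction contrast of limma (adjusted p under 0.01 and a log2 difference of at least 1), and each is listed because of that difference. The values are the change in IMF minus the change in BF on the log2(FPKM + 1) scale, and all are negative. In the ISG15 system the difference was called for ISG15 (−6.65), HERC5 (−5.96), HERC6 (−5.79), UBA7 (−4.40), USP18 (−4.36) and TRIM25 (−2.88). Among the effectors the difference was called for RSAD2 (−9.18), IFIT1 (−8.85), MX2 (−7.23), IFIT2 (−7.14), CMPK2 (−5.68), OAS2 (−5.48), OAS1 (−5.38), MX1 (−5.30), IFI44 (−5.05), SAMD9 (−4.73), BST2 (−4.72), IFI44L (−4.33), LGALS3BP (−4.16) and EIF2AK2 (−3.15). Among the sensors the difference was called for DHX58 (−4.62), ZBP1 (−4.24) and IFIH1 (−3.53). Among the genes of transcriptional control the difference was called for PARP14 (−5.00), IRF7 (−3.85), PARP9 (−3.76), DTX3L (−3.11) and IRF9 (−1.92). Among the genes of antigen processing and chemoattraction the difference was called for GBP1 (−3.87) and PSMB8 (−2.71). The contrast was known when the genes were chosen, so the calls add no independent evidence. The number called was 38 without BF-8d replicate 1, 28 without BF-8d replicate 2 and 25 without BF-8d replicate 3, and 25 genes were called in each of the 12 fits that left out 1 library. With only the 12 compared libraries 10 were called (IFIT1, IFIT2, MX1, MX2, OAS2, RSAD2, IFI44, IFI44L, SAMD9 and TRIM25).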

How the results depend on the processing

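The direction of single-gene calls held in all 1710 refits of single genes, of which 1388 stayed on the same side of the threshold and 322 were no longer called. Counts of called genes moved mainly with the libraries fitted. With only the compared libraries, the counts were 1 for BF-2d against BF-0d, 0 for BF-8d against BF-4d, 20 for IMF-8d against IMF-4d, 29 for IMF-0d against BF-0d, 8 for IMF-2d against BF-2d, 29 for IMF-4d against BF-4d, 0 for IMF-8d against BF-8d and 10 for the interaction from day 4 to day 8. Without the BF-8d libraries, an alternative chosen after seeing the data, they were 1, 16, 28 and 28 for BF-2d against BF-0d, IMF-8d against IMF-4d, IMF-0d against BF-0d and IMF-2d against BF-2d. A pseudocount of 0.1 gave 10 for IMF-2d against BF-2d. Leaving out single libraries gave 25 to 39 for BF-8d against BF-4d, 0 to 5, 1 to 6, 14 to 27 and 4 to 37 for the depots on days 0, 2, 4 and 8, and 25 to 38 for the interaction from day 4 to day 8. It gave 0 throughout elsewhere. The share of all genes called is not given for the pseudocount, the replicate block or the fits that left out 1 library. Those counts describe the 39 genes only.

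The deviations of same-numbered replicates from their group means had correlations from −0.246 to 0.192, and in no comparison did all 3 pairs pass 0.1, the limit set for treating the numbers as pairs. The pairs of IMF-2d and BF-2d came nearest (0.0804, 0.177 and 0.192), with 5 of 6 libraries closest to their own number. In 0 comparisons did every library correlate best with its own number. With the replicate block the counts were 35 for BF-8d against BF-4d, 10, 5, 28 and 20 for the depots on days 0, 2, 4 and 8, 30 for the interaction from day 4 to day 8 and 0 elsewhere.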

Other observations

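Outside the 39 genes, 45 genes also had a BF-8d range of at least 3 log2 units, and 34 of these had the order replicate 2 over replicate 3 over replicate 1, which 20.8% of all tested genes had. IDO1, an enzyme that breaks down tryptophan, had 1.8, 59.6 and 13 FPKM in BF-8d replicates 1 to 3. CD274, the checkpoint ligand, had 0.803, 22.4 and 4.22 FPKM, and SAMHD1, which depletes nucleotides, had 8.8, 96.9 and 26.4 FPKM. GHSR, the ghrelin receptor, had 0.534, 55.5 and 20.5 FPKM, and FOXS1, a forkhead factor, had 0.804, 26.6 and 8.36 FPKM. These genes were picked after their values were seen.

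IDO1 was also uneven in BF-4d, with 0.325, 0.138 and 16.2 FPKM, where replicate 3 was the highest library for 38 of the 39 interferon-stimulated genes too. TOPORS, a ligase for ubiquitin and SUMO, was out of step, with 13.2, 161 and 11 FPKM in BF-8d. Some genes without a symbol were highest in BF-8d replicate 1 instead. Among them were an assembled gene with 11300, 87 and 209 FPKM and an Ensembl gene with 3800, 80.9 and 110 FPKM in BF-8d replicates 1 to 3.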
